A study of Mus musculus with 8 samples.

Results

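The lens fibre membrane and filament genes are 7 genes chosen by symbol for their place in the fibre cell: *Bfsp1*, *Bfsp2*, *Mip*, *Lim2*, *Gja3*, *Lgsn* and *Lenep*. All 7 were found among the 31053 genes of the count tables. RNA of isolated retinal pigment epithelium (RPE) from C57/Bl6 mice at postnatal day 29 (P29) was sequenced in 8 libraries, 4 from wild-type animals (*Bbs8*+/+) and 4 from animals lacking the cilium gene *Bbs8* (*Bbs8*-/-). The deletion was in the germline, so that lens, retina and RPE all lacked *Bbs8*, no animal was treated, the sex of the animals was not determined, and the study counted each animal as a biological replicate. Lens, cornea and neural retina were removed before the RPE sheets were peeled off. Reads came from the 3′ end of polyadenylated transcripts (QuantSeq), and the question asked here is how far transcripts of lens fibre cells that were present in these RPE preparations differed between the genotypes.

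Fibre cells make up the bulk of the lens. As they mature they fill with crystallins, lose their nucleus and organelles, and build a membrane and a cytoskeleton that few other cells have. *Bfsp1* (filensin) and *Bfsp2* (phakinin) assemble into the beaded filament, an intermediate filament of fibre cells. *Mip* (aquaporin 0) is the main protein of the fibre membrane and conducts water and helps fibres adhere, *Lim2* is a second abundant fibre membrane protein, and *Gja3* (connexin 46) forms the gap junctions that couple fibres. *Lgsn* (lengsin) encodes a lens protein of the glutamine synthetase family, and *Lenep* a small protein named after the lens epithelium. None of them is a marker of the RPE.

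The start regions of the 4 members that were detected in every library are printed here, so that the letters of genes that all fell can be compared. They are the 300 bases from 250 before to 50 after the RefSeq start site, on GRCm38.p6, at chr10:128225560-128225859 (*Mip*, plus strand), chr7:43429849-43430148 (*Lim2*, plus strand), chr2:143863124-143863423 (*Bfsp1*, minus strand) and chr9:103449127-103449426 (*Bfsp2*, minus strand). Each is written 5′ to 3′ along its gene, and capitals mark matches to any of 4 motifs: the core of the Maf recognition element TGCTGA, the heat shock pair GAANNTTC or TTCNNGAA, the Sox core CATTGT and the TATA box TATAAA. Both strands were searched, so that a match on the other strand reads as its reverse complement.
Mip: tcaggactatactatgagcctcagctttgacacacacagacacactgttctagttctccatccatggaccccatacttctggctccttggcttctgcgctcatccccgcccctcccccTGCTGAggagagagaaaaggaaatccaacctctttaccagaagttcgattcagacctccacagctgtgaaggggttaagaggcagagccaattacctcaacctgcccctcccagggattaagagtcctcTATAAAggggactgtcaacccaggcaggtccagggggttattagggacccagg
Lim2: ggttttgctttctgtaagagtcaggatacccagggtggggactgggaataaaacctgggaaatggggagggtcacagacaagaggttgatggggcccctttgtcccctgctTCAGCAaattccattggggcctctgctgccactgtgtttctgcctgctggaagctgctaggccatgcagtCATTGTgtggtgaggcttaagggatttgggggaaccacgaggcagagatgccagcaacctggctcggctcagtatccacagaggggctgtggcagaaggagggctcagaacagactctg
Bfsp1: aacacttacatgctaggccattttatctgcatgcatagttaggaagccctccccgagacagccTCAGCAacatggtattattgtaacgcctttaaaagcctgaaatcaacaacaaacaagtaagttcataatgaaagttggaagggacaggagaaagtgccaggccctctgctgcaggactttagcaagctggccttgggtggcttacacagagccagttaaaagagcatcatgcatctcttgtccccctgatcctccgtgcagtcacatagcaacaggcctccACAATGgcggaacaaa
Bfsp2: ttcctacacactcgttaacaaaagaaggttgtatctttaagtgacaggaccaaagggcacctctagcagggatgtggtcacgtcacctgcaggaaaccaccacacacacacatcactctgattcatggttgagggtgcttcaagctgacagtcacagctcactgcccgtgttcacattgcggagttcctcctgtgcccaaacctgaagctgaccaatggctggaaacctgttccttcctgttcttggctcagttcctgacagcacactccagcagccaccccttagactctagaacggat
Windows were present for all 7 members, with a second window for *Gja3*. TGCTGA was found in windows of 5 members (*Mip*, *Lim2*, *Bfsp1*, *Lgsn* and *Lenep*) and in 19.5% of all 32851 windows of this length. TATAAA was found in 3 (*Mip*, *Gja3* and *Lgsn*) against 13.6% of all windows, CATTGT in 2 (*Lim2* and *Bfsp1*) against 12.6%, and the heat shock pair in 1 (*Lenep*) against 15.1%. The 4 motifs share no overlapping match in these windows, and the *Bfsp2* window held none of them. That window lies 31244 bases inside the gene as GENCODE draws it, and the *Lim2* window 2429 bases inside, so that other start sites of these genes were not searched. In *Mip* the TATAAA begins 31 bases before the start site of GENCODE. A match is a description of letters and not a binding site.

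Counts on genes ranged from 2389835 to 3093428 per library, and 3 counts, taken as the floor, equalled 1.02 to 1.23 CPM (gene counts scaled to a common library size, with TMM factors). Reads outside annotated genes made up 17.0% to 18.4% of the reads in *Bbs8*+/+ libraries and 19.8% to 20.6% in *Bbs8*-/- libraries, a share that moved with genotype. *Bbs8*, annotated as *Ttc8*, was at 47.6 ± 10.3 CPM in *Bbs8*+/+ and 4.70 ± 1.97 CPM in *Bbs8*-/- libraries (SD, n = 4), a change of −3.34 log2 units with an edgeR adjusted p of 2.47e-11. The test was run on the 12889 genes that reached 1 CPM in 4 or more libraries, of which 877 (6.8%) passed the threshold of 0.05 on the adjusted p as lower in *Bbs8*-/- and 704 as higher, with a median log2 fold change of 0.02. The balance of these calls rests on the scaling: library size alone gave 657 lower and 1005 higher genes with a median of 0.11, scaling to 12 RPE marker genes gave 2971 and 240 with a median of −0.31, and scaling to the same markers without *Ttr*, chosen after seeing the data, gave 629 and 1034 with a median of 0.12. Under each of these scalings *Mip*, *Bfsp1*, *Lim2* and *Bfsp2*, the members detected in every library, were lower and kept their call.

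Transcripts of 4 members, *Mip*, *Bfsp1*, *Lim2* and *Bfsp2*, were above 1 CPM in all 8 libraries, and all 4 fell in *Bbs8*-/- RPE. The fall was 7.14-fold for *Bfsp1*, 3.19-fold for *Bfsp2*, 2.94-fold for *Mip* and 1.88-fold for *Lim2*. For each of the 4 the values of the *Bbs8*-/- libraries were all under those of the *Bbs8*+/+ libraries, a pattern that 8.62% of all tested genes showed. Fewer lens cells and less RNA per lens cell cannot be told apart in such bulk samples.

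**Figure D1:**
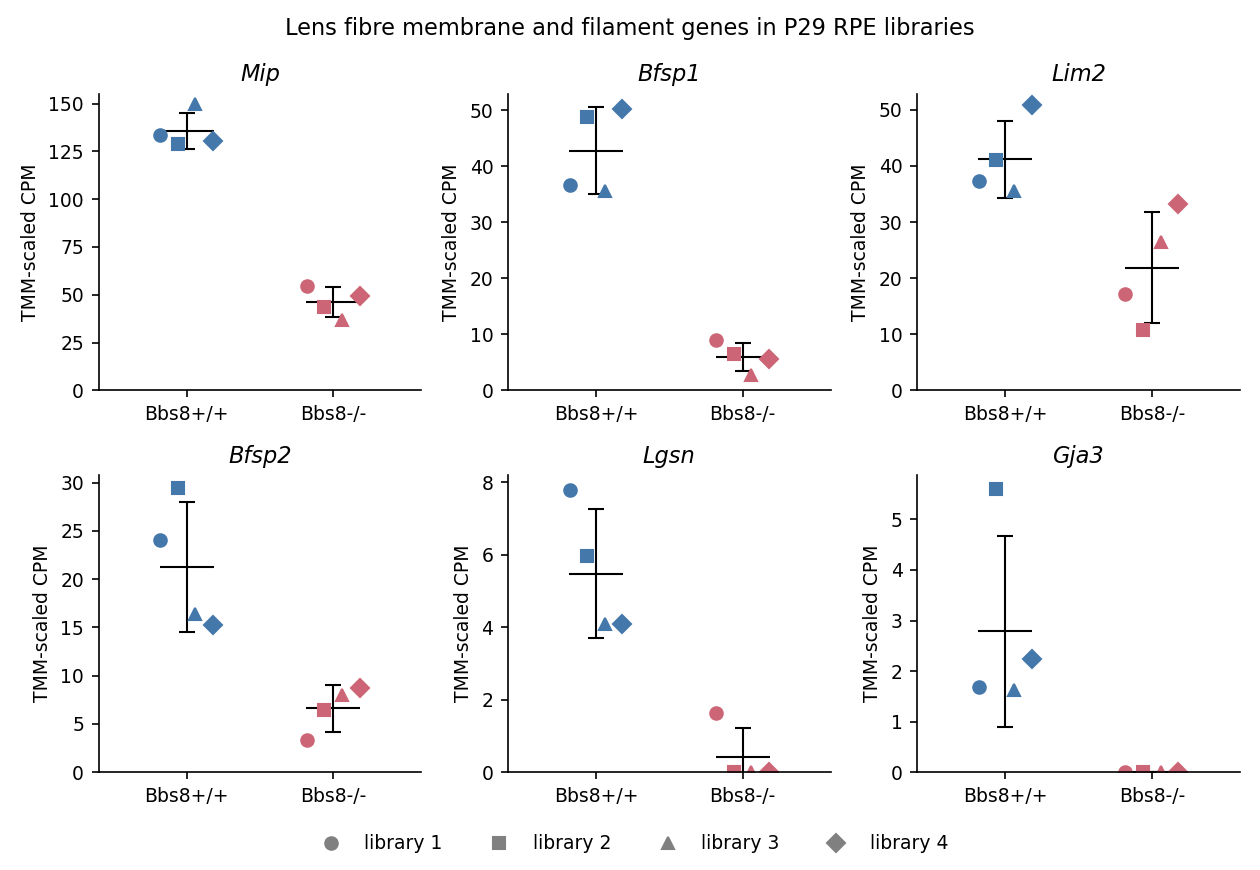
TMM-scaled CPM of the 6 detected members (vertical axes, each from 0) in the 4 *Bbs8*+/+ (blue) and 4 *Bbs8*-/- (red) libraries; the marker shape gives the library number, and the lines give the mean and SD of each genotype. The groups do not overlap in any panel, and 8.62% of all tested genes had every *Bbs8*-/- library below every *Bbs8*+/+ library. *Gja3* and *Lgsn* passed the filter on low counts only through the *Bbs8*+/+ libraries and could only come out lower. The *Lim2* values of *Bbs8*-/- libraries spread from 10.7 to 33.2 CPM, and *Gja3* is at 0 in all 4 *Bbs8*-/- libraries.

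Of the filament genes, *Bfsp1* (ENSMUSG00000027420, chr2:143826528-143863173, minus strand, GRCm38) had 108, 131, 87 and 135 counts in *Bbs8*+/+ libraries 1 to 4 and 22, 18, 7 and 16 in *Bbs8*-/- libraries 1 to 4. This equalled 36.6, 48.9, 35.6 and 50.2 CPM against 9.03, 6.45, 2.80 and 5.59 CPM. Even the highest *Bbs8*-/- library was far below the lowest *Bbs8*+/+ library, and *Bbs8*-/- library 3 was the lowest of all, with a 95% exact Poisson interval of 1.13 to 5.77 CPM that covers counting error only. The means were 42.8 ± 7.80 CPM in *Bbs8*+/+ and 5.97 ± 2.57 CPM in *Bbs8*-/- RPE (SD, n = 4). On the log2 scale *Bfsp1* changed by −2.83 with a standard error of 0.285 (adjusted p = 6.80e-10 from the edgeR quasi-likelihood test).

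*Bfsp2* (ENSMUSG00000032556, chr9:103424924-103480420, minus strand), the partner of *Bfsp1* in the beaded filament, had 71, 79, 40 and 41 counts in *Bbs8*+/+ and 8, 18, 20 and 25 counts in *Bbs8*-/- libraries. In CPM these were 24.0, 29.5, 16.4 and 15.2 against 3.28, 6.45, 8.0 and 8.74. Within the *Bbs8*+/+ group libraries 1 and 2 were above libraries 3 and 4, and within the *Bbs8*-/- group library 1 was the lowest, where *Bfsp1* had its highest value. The group means (SD, n = 4) were 21.3 ± 6.72 and 6.62 ± 2.42 CPM. *Bfsp2* thus changed by −1.67 ± 0.340 on the log2 scale (estimate ± standard error, edgeR adjusted p = 4.63e-04).

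Of the membrane genes, *Mip* (ENSMUSG00000025389, chr10:128225838-128231812, plus strand), the water channel, had 395, 345, 366 and 351 counts in *Bbs8*+/+ and 133, 121, 92 and 142 counts in *Bbs8*-/- libraries. These equalled 133.7, 128.7, 149.6 and 130.4 CPM against 54.6, 43.4, 36.8 and 49.6 CPM. *Mip* had the tightest replicates of the members, with a coefficient of variation of 7.05% in *Bbs8*+/+ and 16.7% in *Bbs8*-/- libraries. Group means (SD, n = 4) were 136 ± 9.57 and 46.1 ± 7.72 CPM, and the change of −1.56 ± 0.140 log2 units (estimate ± standard error) had an edgeR adjusted p of 4.55e-11. All of the last 500 exonic bases of *Mip*, where QuantSeq reads fall, lie opposite the antisense transcript *Gm26847*, which had 1 to 13 counts in each library. The strand setting of the counting is not given in the sources used here. Without strand, a counter of this kind would assign a read that falls on both genes to neither.

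*Lim2* (ENSMUSG00000093639, chr7:43427670-43435996, plus strand) had 110, 110, 87 and 137 counts in *Bbs8*+/+ and 42, 30, 66 and 95 counts in *Bbs8*-/- libraries. In CPM the *Bbs8*+/+ libraries were at 37.2, 41.0, 35.6 and 50.9 and the *Bbs8*-/- libraries at 17.2, 10.7, 26.4 and 33.2. The groups came close to each other, and the coefficient of variation was 16.7% in *Bbs8*+/+ but 45.2% in *Bbs8*-/- libraries, where libraries 3 and 4 were above libraries 1 and 2. With means of 41.2 ± 6.88 and 21.9 ± 9.90 CPM (SD, n = 4), *Lim2* changed by −0.91 ± 0.248 log2 units (estimate ± standard error, edgeR adjusted p = 0.0105). The call rests on single libraries: the log2 fold change was −0.80 (edgeR adjusted p = 0.0627) without *Bbs8*+/+ library 4 and −0.68 (edgeR adjusted p = 0.0608) without *Bbs8*-/- library 2.

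*Gja3* and *Lgsn* were rare, and they passed the filter on low counts only through the *Bbs8*+/+ libraries, so that any test of them had to find them lower in *Bbs8*-/- RPE. *Gja3* (ENSMUSG00000048582, chr14:57034460-57058100, minus strand) had 5, 15, 4 and 6 counts in *Bbs8*+/+ libraries, or 1.69, 5.59, 1.64 and 2.23 CPM, and 0 counts in all 4 *Bbs8*-/- libraries. *Bbs8*+/+ library 2 stood above the other three, which lay close to the floor. Against a floor of 3 counts over the 4 *Bbs8*-/- libraries together (0.283 CPM), *Gja3* was at least 9.83-fold lower than the 2.78 CPM of the pooled *Bbs8*+/+ libraries (adjusted p = 0.00768, edgeR). The 9.83-fold takes the 30 pooled *Bbs8*+/+ counts as exact, of which 15 came from library 2. Without *Bbs8*+/+ library 2 the edgeR adjusted p was 0.0577.

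*Lgsn* (ENSMUSG00000050217, chr1:31176401-31204725, plus strand) had 23, 16, 10 and 11 counts in *Bbs8*+/+ libraries, or 7.79, 5.97, 4.09 and 4.09 CPM. In *Bbs8*-/- RPE it had 4 counts, or 1.64 CPM, in library 1 and 0 counts in libraries 2, 3 and 4. The 4 pooled *Bbs8*-/- libraries held 6.78% of the pooled *Bbs8*+/+ level, with a 95% exact interval of 1.79% to 18.3% for counting error only. The adjusted p was 0.00827 (edgeR; fitted log2 fold change −3.67, standard error 0.977). An antisense gene that overlaps the end of *Lgsn*, *4931428L18Rik*, had 0 counts in every library.

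*Lenep* (ENSMUSG00000078173, chr3:89400988-89402793, minus strand) had 0 counts in all 8 libraries. This is no measure of its level, because 1790 of its 1806 exonic bases (99.1%) are shared with exons of *Flad1*, a gene of FAD synthesis on the same strand, and a read that falls on both genes is assigned to neither by a counter of this kind. *Flad1* itself had 14 to 23 counts in *Bbs8*+/+ and 4 to 13 counts in *Bbs8*-/- libraries (adjusted p = 0.293, edgeR).

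Summed over the members, the libraries held 241 to 260 CPM in *Bbs8*+/+ and 67.0 to 97.1 CPM in *Bbs8*-/- RPE. Within this sum the share of *Bfsp1* counts went from 17.1 ± 2.59% to 7.42 ± 3.19% and that of *Lim2* from 16.5 ± 2.46% to 26.5 ± 9.89%, whereas *Mip* was at 54.6 ± 5.31% and 57.3 ± 7.98% and *Bfsp2* at 8.52 ± 2.55% and 8.31 ± 3.08% (SD, n = 4). Each transcript gives reads at its end alone, so these shares were not divided by transcript length. To test whether members fell by unequal factors, the log2 ratio of counts was compared between genotypes for all 6 pairs of the 4 better covered members by exact permutation of the library labels (two-sided). With 4 libraries a genotype this test cannot give a p under 0.0286. *Bfsp1* fell further than *Lim2*, with a difference in log2 ratio of −1.88 (standard error 0.602), and further than *Mip*, with a difference of −1.33 (standard error 0.293). For these pairs the genotypes did not overlap and p was at its smallest, but the p adjusted over the 6 pairs was 0.0857 (exact permutation test), which misses the threshold. With these pairs alone at the smallest p, no larger difference between the genotypes could have passed. For *Bfsp1* to *Bfsp2* the difference was −1.21 (standard error 0.652), for *Bfsp2* to *Lim2* −0.68 (0.441), for *Mip* to *Lim2* −0.55 (0.410) and for *Bfsp2* to *Mip* −0.12 (0.469), and in these 4 pairs the genotypes overlapped, with exact adjusted p of 0.257 or above.

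Crystallins, the soluble proteins that fill the fibre, were lower in the same *Bbs8*-/- libraries: all 16 tested alpha, beta and gamma crystallin genes fell, against 6.8% of all tested genes. The median log2 fold change of the crystallins was −2.90, against 0.02 for all tested genes. Their summed level was 3762 ± 78.9 CPM in *Bbs8*+/+ and 612 ± 25.1 CPM in *Bbs8*-/- RPE (SD, n = 4). The alpha crystallins *Cryaa* and *Cryab* changed by −2.88 and −0.87 on the log2 scale, the beta crystallins by −2.29 (*Crybb2*) to −2.92 (*Cryba2*), and the gamma crystallins by −1.90 (*Crygn*) to −5.76 (*Crygf*). Here *Crygf* and its near-identical neighbour *Cryge* are uncertain, because uniquely mapped reads can be split between them. *Crygf* had 3 counts and *Cryga* 7 counts over the *Bbs8*-/- libraries. Both passed the filter on low counts through the *Bbs8*+/+ libraries, so that a test of them could only find them lower. The −5.76 of *Crygf* is a fitted value near the floor. The fold changes of *Mip*, *Lim2* and *Bfsp2* were smaller in size than those of 15 of the 16 crystallins, *Cryab* being the exception, and *Bfsp1* lay among the beta crystallins.

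**Figure D2:**
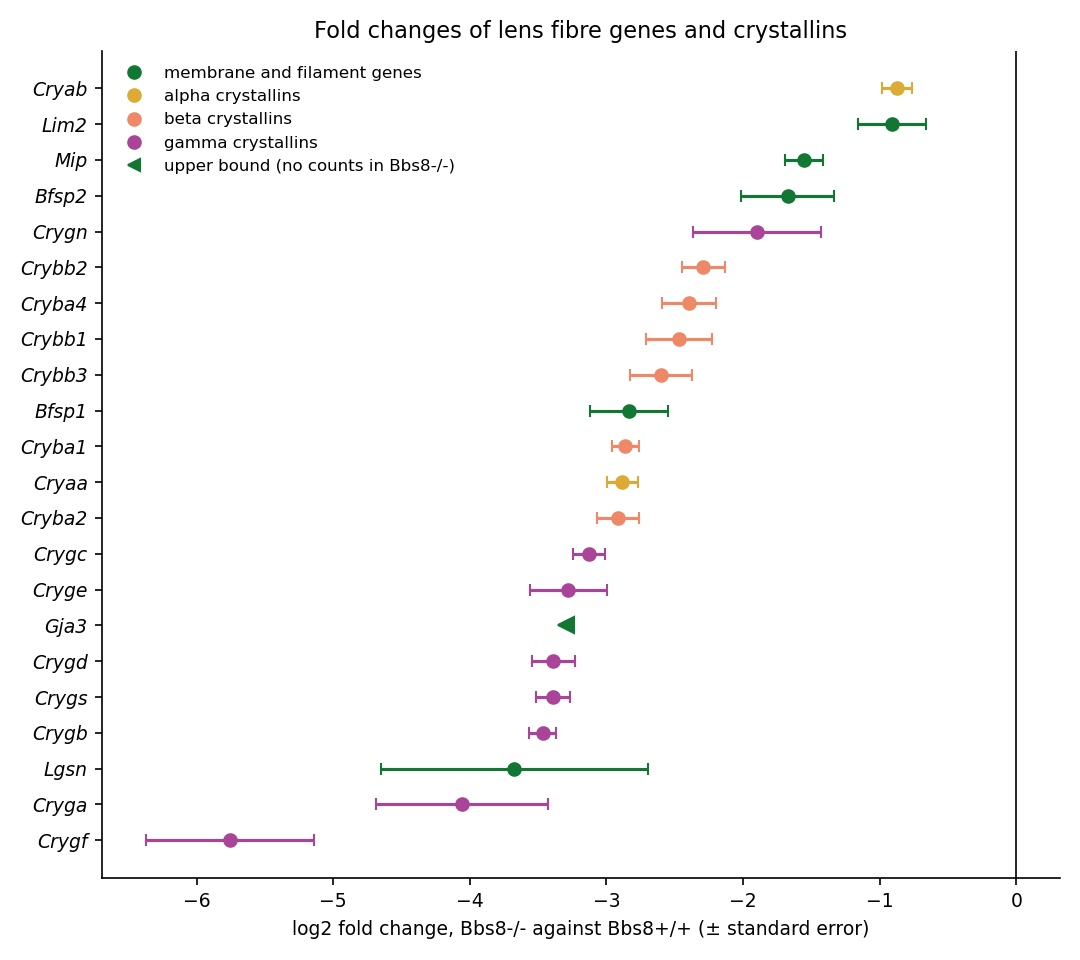
Log2 fold change of *Bbs8*-/- against *Bbs8*+/+ RPE with its standard error (horizontal axis, edgeR) for the 6 tested membrane and filament genes (green) and the alpha, beta and gamma crystallins. All lie left of 0, from −5.76 for *Crygf* (a fitted value near the floor) to −0.87 for *Cryab*; the triangle for *Gja3* marks an upper bound against a floor of 3 counts and has no error bar. *Gja3*, *Lgsn*, *Crygf* and *Cryga* passed the filter on low counts through the *Bbs8*+/+ libraries and could only lie left of 0.

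Counted against the crystallins of the same library, a ratio that needs no scaling between libraries, *Mip* stood at 35.9, 33.9, 40.8 and 33.9 counts per 1000 crystallin counts in *Bbs8*+/+ and at 86.0, 74.1, 58.3 and 83.1 in *Bbs8*-/- libraries. Every *Bbs8*-/- library was above every *Bbs8*+/+ library, the log2 ratio being higher by 1.05 (standard error 0.141, exact permutation p = 0.0286, adjusted p = 0.0571 over 4 members). *Lim2* stood at 9.98, 10.8, 9.69 and 13.2 against 27.1, 18.4, 41.8 and 55.6 per 1000, also without overlap, and its log2 ratio was higher by 1.61 (standard error 0.361, exact permutation p = 0.0286, adjusted p = 0.0571). *Bfsp2* was at 5.65 ± 1.77 and 10.9 ± 4.08 per 1000, with overlapping groups (log2 difference 0.93, standard error 0.392, exact adjusted p = 0.114). *Bfsp1* was at 11.3 ± 1.85 and 9.76 ± 4.08 per 1000 (SD, n = 4), a log2 difference of −0.28 (standard error 0.366, exact adjusted p = 0.571) that does not set it apart from the crystallins. Over all 16 crystallins 0 of the 4 ratios passed the threshold on the adjusted exact p, and 2 had an unadjusted p under 0.05. After adjustment, 2 members at the smallest exact p of 0.0286 come to 0.0571, and 3 members come to 0.0381. *Mip* and *Lim2* could thus pass only with a further member at that p. The number that passed is therefore no measure of the size of their ratios. The make-up of this crystallin sum differed between the genotypes. *Cryab* was at 357 of 3762 CPM in *Bbs8*+/+ and at 195 of 612 CPM in *Bbs8*-/- libraries (means). Against the gamma crystallins alone 3 members, *Bfsp2*, *Mip* and *Lim2*, passed with log2 differences of 1.68, 1.81 and 2.36 (exact adjusted p = 0.0381) and *Bfsp1* differed by 0.48, whereas against the alpha crystallins alone, among them *Cryab*, the differences of *Mip*, *Lim2* and *Bfsp1* were 0.22, 0.77 and −1.11 and none passed.

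**Figure D3:**
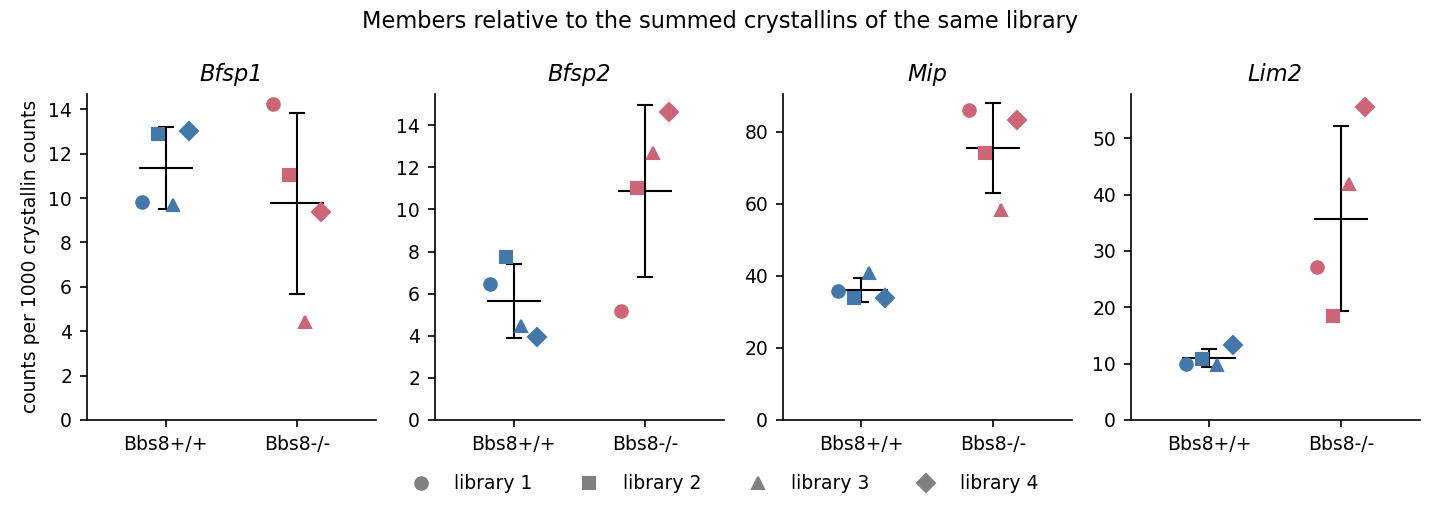
Counts of *Bfsp1*, *Bfsp2*, *Mip* and *Lim2* per 1000 crystallin counts of the same library (vertical axes from 0) in *Bbs8*+/+ (blue) and *Bbs8*-/- (red) libraries, with mean and SD. *Mip* and *Lim2* are higher in all 4 *Bbs8*-/- libraries, and *Bfsp1* and *Bfsp2* overlap between the genotypes.

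Other genes of the fibre membrane and its skeleton, from a list of 15 partners with other roles in the eye as well, did not move as a group: of 12 tested, 3 fell, 1 rose and 8 were not called, and the median log2 fold change was 0.03 against 0.02 for all tested genes. Of all 12889 tested genes 877 (6.8%) were called lower and 704 higher. *Aqp1*, a water channel of lens epithelium and of erythrocytes, had means of 68.9 ± 17.2 and 30.3 ± 2.13 CPM (SD, n = 4) and fell by 1.18 on the log2 scale (edgeR adjusted p = 9.66e-06). *Cadm1*, an adhesion molecule, and *Ank2*, an ankyrin that anchors the fibre membrane skeleton, fell by 0.68 and 0.37, although the call of *Ank2* was lost with library size as the scaling (edgeR adjusted p = 0.0725). *Gja1* (connexin 43), the gap junction protein of lens epithelium and of the RPE, had means of 222 ± 35.7 and 327 ± 27.5 CPM and rose by 0.56 (edgeR adjusted p = 1.34e-04), but with scaling to the RPE markers its log2 fold change was 0.22 (edgeR adjusted p = 0.128), and 0.66 with *Ttr* left out of these markers. Scaled to the RPE markers 5 of the 12 fell and 0 rose, with a median of −0.31 in the list as in all genes, and without *Ttr* 2 fell and 1 rose. The water channel *Aqp5* had 2 counts over the *Bbs8*+/+ libraries and 0 over the *Bbs8*-/- libraries, which is below what could be tested.

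A list of 16 transcription factors and organelle removal genes of the lens held 12 tested genes, of which 0 fell and 3 rose at the edgeR threshold, with a median log2 fold change of 0.18. Over all 12889 tested genes 877 (6.8%) were called lower and 704 higher. At an unadjusted p under 0.05 (edgeR) 1 fell, *Grifin*, and DESeq2 also called 0 lower and 3 higher. The 3 were *Pax6*, the eye field regulator, *Maf*, a fibre cell activator also used in other tissues, and *Fyco1*, an autophagy adaptor, with log2 fold changes of 1.07, 0.52 and 0.37 (adjusted p = 0.00844, 4.96e-04 and 0.00827, edgeR). With scaling to the RPE markers none of the 3 passed, at log2 fold changes of 0.73, 0.19 and 0.04 (edgeR adjusted p = 0.0606, 0.235 and 0.850), and with *Ttr* left out of the markers all 3 passed. *Grifin*, a galectin-related lens protein, was at 5.16 ± 3.14 and 1.64 ± 1.51 CPM (adjusted p = 0.176, edgeR), and *Hsf4*, the heat shock factor of the lens, at 2.41 ± 1.06 and 2.31 ± 1.38 CPM. *Pitx3*, *Birc7* and *Sox1* had 9, 5 and 5 counts over the *Bbs8*+/+ libraries and 0 over the *Bbs8*-/- libraries, and *Foxe3*, a factor of lens epithelium, had 0 counts throughout.

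Markers of other tissues moved with the genotype in the same libraries. Among all 12889 tested genes 877 (6.8%) were called lower and 704 higher. The 12 RPE markers, of which 4 fell and 4 rose, were all detected and summed to 36538 to 37620 CPM in *Bbs8*+/+ and 44978 to 48402 CPM in *Bbs8*-/- libraries. *Ttr*, the transthyretin gene, alone carried this rise, at 20173 to 21446 and 29945 to 33222 CPM, and the other 11 summed to 15584 to 16615 CPM in *Bbs8*+/+ and 14928 to 15323 CPM in *Bbs8*-/- libraries. Of 13 photoreceptor markers 9 fell and 2 rose, and their sum went from 54523 to 57335 CPM in *Bbs8*+/+ down to 22810 to 23643 CPM in *Bbs8*-/- libraries. Of 6 erythroid markers 5 fell, with sums of 5154 to 5718 and 1985 to 2218 CPM. Of 7 markers of Müller and reactive glia 4 rose (1189 to 1421 and 2359 to 2536 CPM), led by *C4b*, and of 7 surface epithelium markers 4 rose, led by *Krt5* (sums of 42.1 to 61.9 and 112 to 145 CPM), whereas the corneal keratin *Krt12* was at 0 counts in all libraries. *Krt5* and *Krt14* had 0 counts over the *Bbs8*+/+ libraries and *Krt15* had 1. These keratins passed the filter on low counts only through the *Bbs8*-/- libraries, so that any test of them had to find them higher. DESeq2 called 3 surface epithelium markers higher. Of 4 fibroblast markers 2 fell, against 0 with library size as the scaling, and of the 4 endothelial, 4 microglial and 5 bipolar and amacrine markers 0 were called by edgeR or DESeq2 and 0 had an unadjusted p under 0.05 (edgeR). Scaled to the RPE markers with *Ttr*, 7 RPE, 10 photoreceptor, 5 erythroid and 4 fibroblast markers, the glial marker *Vim* and the bipolar marker *Trpm1* were lower, and 1 RPE, 1 photoreceptor, 2 glial and 4 surface epithelium markers higher. The part of these shifts in the values of the lens genes was not tested.

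Among 8424 genes at a mean of 10 CPM or more, the 5 whose profile over the 8 libraries was most like the mean profile of the 6 tested members included *Reep6*, *Rnf123*, *Pkm* and *Nrl*. Likeness was the root mean square difference of log2(CPM + 1) values centred on each gene's mean, which was 0.164 for *Reep6*, 0.220 for *Rnf123* and *Pkm* and 0.229 for *Nrl*. *Nrl* is the transcription factor of rods, and *Reep6* is a rod protein of the endoplasmic reticulum. *Reep6* was at 1947 ± 142 and 548 ± 30.2 CPM and *Nrl* at 2145 ± 40.0 and 720.0 ± 59.0 CPM (SD, n = 4), with log2 fold changes of −1.83 and −1.58. The mean profile of the crystallins differed from that of the members by 0.514, the crystallins being lower in all 4 *Bbs8*-/- libraries and higher in all 4 *Bbs8*+/+ libraries when centred. *Gja3* and *Lgsn* enter the mean profile of the members with a step that the filter on low counts helped to set. Over the other 4 members alone, an alternative chosen after seeing the data, 4 of the 5 most alike genes were shared, *Rnf123* being ranked 6 and *Ccn4* being ranked 5. All these profiles share the same 8 libraries and their scaling, and the likeness is a description.

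**Figure D4:**
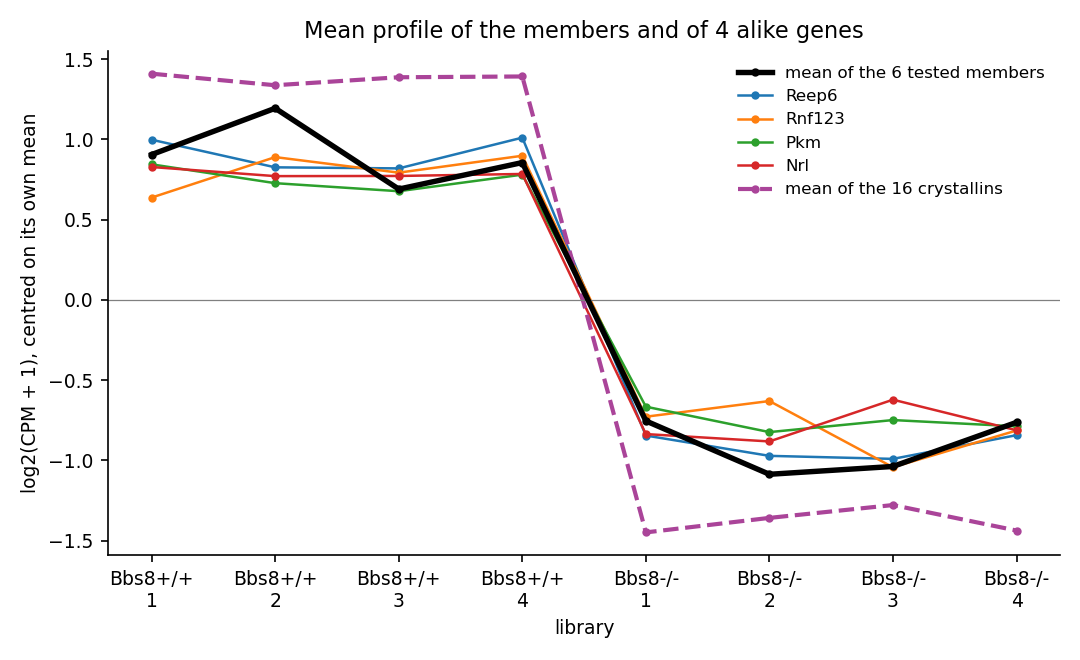
Log2(CPM + 1) centred on each profile's own mean (vertical axis) in the 8 libraries (horizontal axis) for the mean of the 6 tested members (black), 4 of the 5 most alike genes (thin lines) and the mean of the 16 crystallins (dashed). The members lie between 0.69 and 1.19 in *Bbs8*+/+ and between −1.09 and −0.75 in *Bbs8*-/- libraries, a smaller step than that of the crystallins.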

How the data were processed

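RNA of P29 RPE was measured by QuantSeq 3′ sequencing in 4 *Bbs8*+/+ and 4 *Bbs8*-/- libraries, grouped from their labels. The authors trimmed the reads, aligned them with STAR to mm10 and used htseq-count with Ensembl gene models on the uniquely mapped reads. The authors deposited the raw counts per gene, not normalized or filtered. Reads that mapped more than once (32.8% to 34.5%), outside genes or ambiguously (0.244% to 0.296%) carry no gene and stayed out of library sizes. No replicate was said to share a litter, no 2 libraries were identical, and 0 other columns of sample values were left unused.

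Symbols and positions came from GENCODE M21 (GRCm38), in which 30934 identifiers had a name, and start regions from RefSeq on GRCm38.p6. Genes that reached 1 CPM in 4 or more of the 8 libraries were compared in R 4.3.3 with edgeR 4.0.16 (TMM, quasi-likelihood F test, two-sided, Benjamini-Hochberg over all tested genes, threshold 0.05). Ratios between genes used counts plus 0.5, for members that averaged 10 or more counts, and exact permutation tests over libraries (scipy 1.17.1). Profiles used log2(CPM + 1). The scripts were tested on simulated data. Alternatives were other scalings, 1 of them (RPE markers without *Ttr*) added after seeing the data, DESeq2 1.42.0, the likelihood ratio test, other filters, a replicate block, each library left out in turn, and other denominators and pseudocounts. The genes named were the members, *Ttc8*, the called genes with the largest rise and fall in each list and the 5 most alike genes, some of which are not reported here; *Cadm1*, *Ank2*, *Grifin*, *Hsf4*, *Fyco1*, *Maf*, *Flad1*, *Gm26847*, *Vim*, *Trpm1*, *Ccn4* and the genes given as counts alone were named after their values were seen. The members and lists were chosen with earlier results of these data known.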

Additional observations from a re-analysis of the deposited data

Results flagged for a closer look

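In 38 groups of 4 values checked for a library far from the others of its genotype, 3 stood apart. A rate of about 1 in 20 holds for independent normal values, which low counts and ratios that share genes are not. *Lenep* in both genotypes and *Gja3* in *Bbs8*-/- libraries were at 0 throughout and could not be flagged. *Gja3* was highest in *Bbs8*+/+ library 2, at 5.59 CPM, against 1.64 to 2.23 CPM in the other three. The log2 ratio of *Bfsp1* to *Lim2* was 0.25 in *Bbs8*+/+ library 2, the highest of its group. *Lgsn* was at 1.64 CPM in *Bbs8*-/- library 1 and at 0 in the other 3 *Bbs8*-/- libraries, a pattern that this check always flags.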

How the results depend on the processing

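Of 72 log2 fold changes of *Mip*, *Bfsp1*, *Lim2* and *Bfsp2* computed under other settings, 70 kept their direction and their call, and the other 2 were those of *Lim2* given below. *Gja3* and *Lgsn* could only come out lower, and *Gja3* gave no value with edgeR's own filter (filterByExpr) and no adjusted p with DESeq2, which left 5 called members in each. Scaling to the summed RPE markers gave 2971 lower and 240 higher genes, against 657 and 1005 with library size alone and 629 and 1034 without *Ttr*. The number of members past the edgeR threshold was 5 to 6 with each library left out in turn, when the log2 fold changes ranged from −3.09 to −2.61 (*Bfsp1*), −1.85 to −1.46 (*Bfsp2*), −1.65 to −1.47 (*Mip*), −1.20 to −0.68 (*Lim2*), −6.12 to −5.35 (*Gja3*, a fitted value and no bound), −6.91 to −3.28 (*Lgsn*, lowest without *Bbs8*-/- library 1, which leaves it no count in that group and a fitted value that is no bound) and −3.49 to −3.06 (*Ttc8*), and 713 to 865 genes were lower and 540 to 648 higher. *Gja3* missed the threshold without *Bbs8*+/+ library 2 (−5.35) and *Lim2* without *Bbs8*+/+ library 4 (−0.80) or *Bbs8*-/- library 2 (−0.68). The number of members whose ratio to the crystallins passed was 0 over all crystallins and 3 over gamma crystallins alone. The smallest exact p passes the adjustment over 4 members only when 3 or more members reach it, so these numbers do not compare sizes of ratios. The log2 ratio of *Bfsp1* to the crystallins turned to 0.48 over gamma crystallins and was −1.11 over alpha crystallins, and with libraries left out it ranged from −0.49 to 0.0495, turning without *Bbs8*-/- library 3. The log2 ratio of *Bfsp2* to *Mip* ranged from −0.35 to 0.25, turning without *Bbs8*+/+ library 2 (0.07) and without *Bbs8*-/- library 1. With 1 library left out no exact p could go under 0.0571, so these ratios could not pass. The cause was not tested.

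Replicate numbers do not pair the libraries, whose deviations correlated at −0.032 to 0.0067 over 4 same-numbered pairs, 1 of 8 libraries correlating best with its own number. With the replicate block 827 genes were lower and 650 higher, and the 6 tested members kept their calls. The smallest p of 4 pairs is 0.125, so the ratios could not pass with the block. At these depths *Gja3* and *Lgsn* are near the floor.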
